A study of Mus musculus with 2 samples.

Results

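Chemokines that bind CXCR3 and CXCR6, and the 2 receptors themselves, were followed across the immune cells of mouse heart allografts. The genes were Cxcl9, Cxcl10 and Cxcr3, and Cxcl16 and Cxcr6, which are 5 of the 22337 gene columns measured. They were listed by name, and were selected on earlier results of these same cells, so their levels by cell type and the calls below are a description and not an independent test. Single-cell RNA sequencing had been run on cells of 6 Bm12 hearts taken 14 days after transplantation into C57BL/6 (B6) recipients. Bm12 mice carry an altered I-A molecule, so donors and recipients differed at MHC class II in all 6 transplants. Donors and recipients were male. The donor hearts were labelled IL-33+ in 3 transplants (BM12 WT, hearts 1 to 3) and IL-33- in 3 transplants (BM12 IL33 KO, hearts 4 to 6), the latter from Bm12 mice that had been backcrossed to Il33-/- mice. Recipients kept their own Il33 in both groups, so IL-33 was missing from the graft and not from infiltrating cells. Cells of each heart carried their own hashtag and were pooled in 1 library, so that no library or run differed between the groups.

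CXCL9 and CXCL10 are secreted chemokines that interferon gamma induces in macrophages, dendritic cells and stromal cells, and they draw cells bearing CXCR3, mainly activated T cells and NK cells. CXCL16 is made as a membrane protein with a chemokine head on a mucin stalk, can be shed by the proteases ADAM10 and ADAM17, and binds CXCR6 on effector, regulatory and tissue-resident T cells and on NKT cells. In rejecting hearts these receptors and ligands are best known for bringing T cells into the graft and for holding them there.

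The matrix held 4441 cells in 14 types annotated by the authors, and no cell barcode was shared between hearts. Hearts had 230 to 1666 cells and 908162 to 7013113 UMIs (unique molecular identifiers, 1 for each captured transcript), and a cell had 1500 to 14977 UMIs with a median of 3699. Levels are given in CPM, each cell's UMIs scaled to a common total, as the mean of all cells that a heart had of a type. The kit counted UMIs at the 3′ end. Il33 itself was read in fibroblasts of both groups, at 24.3, 0 and 50.7 CPM in hearts 1 to 3 and at 32.6, 73.8 and 16.1 CPM in hearts 4 to 6. The part of the gene that was deleted was not given in the sources used here, so this 3′ readout neither bore out nor contradicted the labels. Cells annotated monocytes numbered 82, 5 and 15 in hearts 1 to 3 and 33, 7 and 12 in hearts 4 to 6. Cells annotated unconventional T cells numbered 2 to 27 in a heart, and 52 of those 83 cells (62.7%) held at least 2 T cell and at least 2 macrophage markers, against 2.33% of macrophages. No doublet caller was run here, and the part of doublets in the values of that type was not tested beyond leaving these cells out.

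The promoters of the neighbouring genes Cxcl9 and Cxcl10 are shown as a description, and their part in where the transcripts were read was not tested. On GRCm38, Cxcl9 lies on chromosome 5 from 92321347 to 92328079 and Cxcl10 on chromosome 5 from 92346638 to 92348889, both on the minus strand. Cxcl16 lies on chromosome 11 from 70453983 to 70459984 (minus strand), Cxcr3 on chromosome X from 101731535 to 101734269 (minus strand) and Cxcr6 on chromosome 9 from 123806475 to 123811760 (plus strand). RefSeq promoters on GRCm38.p6 were matched by symbol for 4 of the 5 genes, and the 250 bases before the start of transcription are printed for Cxcl9 (chr5:92328080-92328329) and Cxcl10 (chr5:92348890-92349139), both on the minus strand and read 5′ to 3′. Capitals mark matches to the motifs searched.
Cxcl9: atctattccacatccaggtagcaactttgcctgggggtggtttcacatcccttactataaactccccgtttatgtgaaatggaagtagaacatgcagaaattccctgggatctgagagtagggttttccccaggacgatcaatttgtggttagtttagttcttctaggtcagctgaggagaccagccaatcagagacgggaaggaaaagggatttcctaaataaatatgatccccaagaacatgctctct
Cxcl10: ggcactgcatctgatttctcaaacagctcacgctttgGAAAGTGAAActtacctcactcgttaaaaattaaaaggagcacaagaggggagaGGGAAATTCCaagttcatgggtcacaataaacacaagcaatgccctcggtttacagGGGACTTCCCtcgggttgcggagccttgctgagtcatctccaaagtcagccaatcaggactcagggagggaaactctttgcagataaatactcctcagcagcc
Both strands were searched for the GAS element (TTCNNNGAA), a repeat of GAAA with 2 bases between the copies (bound by interferon regulatory factors), the NF-kB motif and the T-box motif (AGGTGTGA). In Cxcl10 the GAAA repeat lay 213 to 204 bases before the start, and matches to the NF-kB motif lay 159 to 150 and 103 to 94 bases before it, with no overlap among them. None of these motifs was matched in the printed stretches of Cxcl9, or in the same stretches of Cxcr3 and Cxcr6. Of 32851 promoters, 7.02% held the GAS element in this stretch, 2.98% the GAAA repeat, 3.9% the NF-kB motif and 1.12% the T-box motif. A match is a description of these letters and not of a bound factor. Only full matches to these patterns in 250 bases were counted. A stretch without a match may still hold elements that differ from the patterns, so an absence does not show that a gene lacks them.

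Cxcl9 transcripts were found mainly in macrophages. Macrophages held 61.1% of the 3702 Cxcl9 UMIs, fibroblasts 12.9%, conventional dendritic cells (cDCs) 11.3% and monocytes 5.24%. The level in macrophages was 729.5, 702 and 664 CPM in hearts 1 to 3 and 629.7, 398 and 1097 CPM in hearts 4 to 6. Macrophages had the highest level of the 14 types in hearts 1, 2, 3 and 6, while fibroblasts stood above them in heart 4 (758 CPM) and cDCs in heart 5 (961 CPM). Over 6 hearts macrophages had 703 ± 226 CPM (SD, n = 6) and cDCs 463 ± 270.4 CPM, and the difference between them (240 CPM, SD 472 over hearts) was within its spread. Unconventional T cells (253 ± 252 CPM) and fibroblasts (245 ± 284 CPM) came next, and these neighbours also did not differ beyond their spread. A Cxcl9 UMI was held by 177 of 429 macrophages, or 41.3% (exact 95% binomial interval 36.6 to 46.1%, counting error only), at a median depth of 6605 UMIs. Among naive T cells (Tn), which should not make it, 4.12% held one at a median depth of 2763 UMIs. With every cell thinned to 1500 UMIs, the shares were 27.3% and 2.06%.

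**Figure D1:**
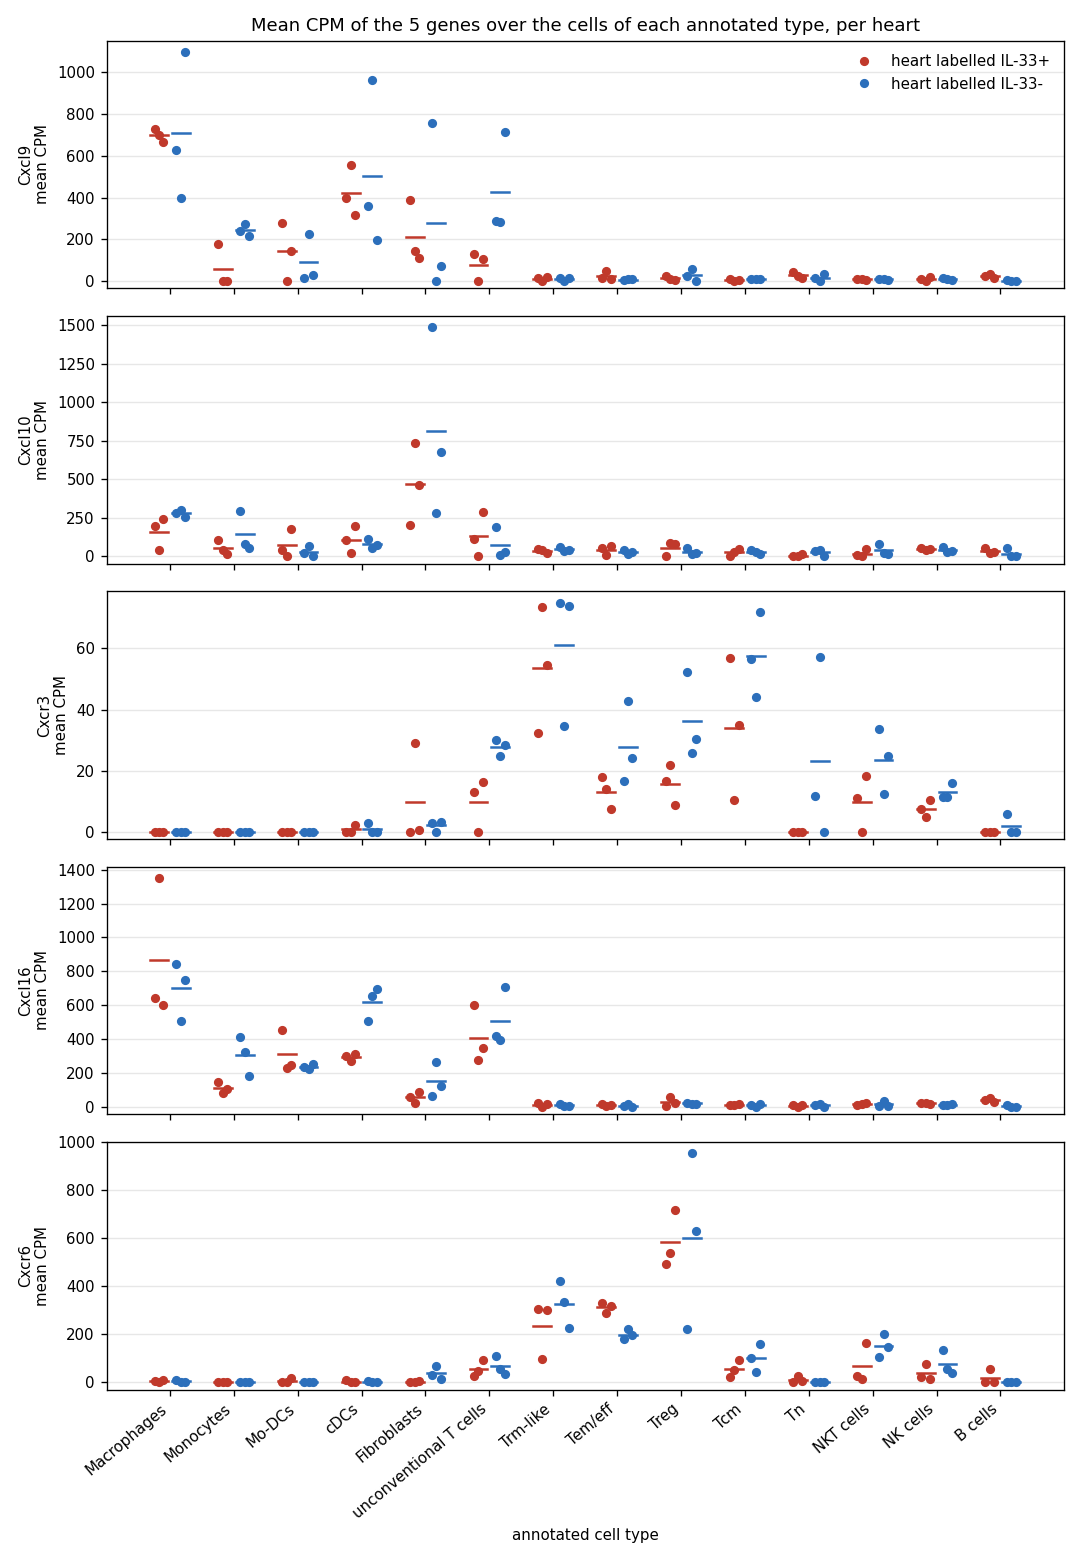
Mean CPM (vertical axes, linear) of Cxcl9, Cxcl10, Cxcr3, Cxcl16 and Cxcr6 over the cells of each annotated type (horizontal axis). Each point is 1 heart, red for hearts labelled IL-33+ and blue for IL-33-, and short lines are the means of 3 hearts. Ligands stood in macrophages, cDCs, fibroblasts and unconventional T cells, and receptors in T cell types and NKT cells.

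Within macrophages most Cxcl9 UMIs lay in few cells. The 10% of macrophages with the highest level (43 cells) held 71.8% of the Cxcl9 UMIs of that type, the median macrophage held none, and the highest held 96. Macrophages with a Cxcl9 UMI were compared with the other macrophages of the same heart after thinning, in the 5 hearts with at least 3 cells on each side. Cxcl16 had 1311 ± 467 CPM (SD, n = 5 hearts) in cells with Cxcl9 and 750 ± 233 CPM in cells without, and was higher in 5 of 5 hearts. Pf4, which encodes the platelet chemokine CXCL4, was not higher in any of the 5 hearts (19.9 ± 23.8 against 143 ± 122 CPM). Irf1, a target and mediator of interferon gamma, had 203 ± 190 CPM in cells with Cxcl9 and 251 ± 123 CPM in cells without. For Cxcl16 the exact paired permutation p was 0.0625 (two-sided), the smallest that 5 pairs can give, and 0.375 when adjusted over the 21 genes compared, so no gene passed.

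Cxcl10 differed from Cxcl9 in where it stood. Fibroblasts, the annotated type that also holds endothelial cells, had 50.3% of the 3071 Cxcl10 UMIs of all hearts and macrophages had 20.6%. Heart 3, with 270 of the 375 fibroblasts, gave 936 of those fibroblast UMIs. Within a heart the share of fibroblasts was larger in hearts 2, 3, 4 and 6 (49.7 to 63.9%), while macrophages held more in heart 1 (47.6% against 10.1%) and heart 5 (61.6% against 7.07%). In fibroblasts the level was 207, 734 and 465 CPM in hearts 1 to 3 and 1485, 283 and 679 CPM in hearts 4 to 6. In macrophages it was 194, 42.3 and 241 CPM in hearts 1 to 3 and 283, 299 and 257 CPM in hearts 4 to 6. Fibroblasts were above macrophages in 5 of 6 hearts, but the mean difference (423 CPM, SD 464.5) was within its spread. A Cxcl10 UMI was found in 37.1% of fibroblasts (interval 32.2 to 42.2%), in 24.5% of macrophages (20.5 to 28.8%) and in 5.76% of naive T cells, or in 22.1%, 10.3% and 2.47% after thinning. In fibroblasts the highest 10% of cells (38) held 80% of its UMIs, and in macrophages the highest 10% (43) held 89.1%.

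Annotated fibroblasts were then divided by their markers. The 201 cells with at least 2 of 5 fibroblast markers and no endothelial marker had a mean of 55.2 CPM of Cxcl9 and 359.8 CPM of Cxcl10. The 18 cells with at least 2 of 6 endothelial markers and no fibroblast marker had 645 CPM of Cxcl9 and 884 CPM of Cxcl10. A Cxcl9 UMI was held by 16 of the 201 cells and by 10 of the 18. The 39 cells with at least 2 markers of both lists had 432 CPM of Cxcl9 and 1332 CPM of Cxcl10. Cells of 5 hearts entered the endothelial group, 10 of the 18 from heart 3, so these values describe cells. Cxcl9 was higher in the endothelial than in the fibroblast group in 5 of 5 hearts, and Cxcl10 in 3 of 5. The Cxcl10 value rested on heart 4, which gave 84 UMIs from 3 cells, and without that heart it was 418 CPM in the endothelial and 351 CPM in the fibroblast group, while Cxcl9 was 523 and 57.7 CPM.

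With the cells of all hearts pooled, the 2 CXCR3 ligands were read in the same cells more often than unrelated genes would be. After thinning, 19.7% of macrophages with Cxcl9 also held Cxcl10, against 6.73% of those without (23 cells with both, where 12 would be counted if the genes were unrelated). In fibroblasts the shares were 59.4% and 18.7%, with 19 cells holding both against 7.08. Every cell entered with the same number of UMIs. Counted within each heart, cells with both exceeded the number for unrelated genes in 4 of 6 hearts in macrophages and in 5 of 6 in fibroblasts. The part of differences between hearts, or among the cells annotated fibroblasts, was not tested.

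Cxcl16 was read in most macrophages and in many cells of the other myeloid types. Macrophages held 57% of its 3819 UMIs and cDCs 13.2%. In macrophages the level was 646, 1350.0 and 603 CPM in hearts 1 to 3 and 846, 507 and 749 CPM in hearts 4 to 6, the highest of the 14 types in 5 of 6 hearts. A Cxcl16 UMI was read in 81.6% of macrophages (interval 77.6 to 85.1%), 60.2% of cDCs, 49.4% of monocytes and 3.7% of naive T cells, or in 53.4%, 28.7%, 22.1% and 2.06% after thinning. The highest 10% of macrophages held 29.1% of its UMIs, against 71.8% for Cxcl9 and 89.1% for Cxcl10, and the median macrophage had 568 CPM. Mo-DCs, annotated as monocyte-derived dendritic cells, had 274 ± 89.9 CPM (n = 6). Within them, 158 cells with fewer than 4 of 8 neutrophil markers had 348 CPM and the 46 others 58 CPM.

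**Figure D2:**
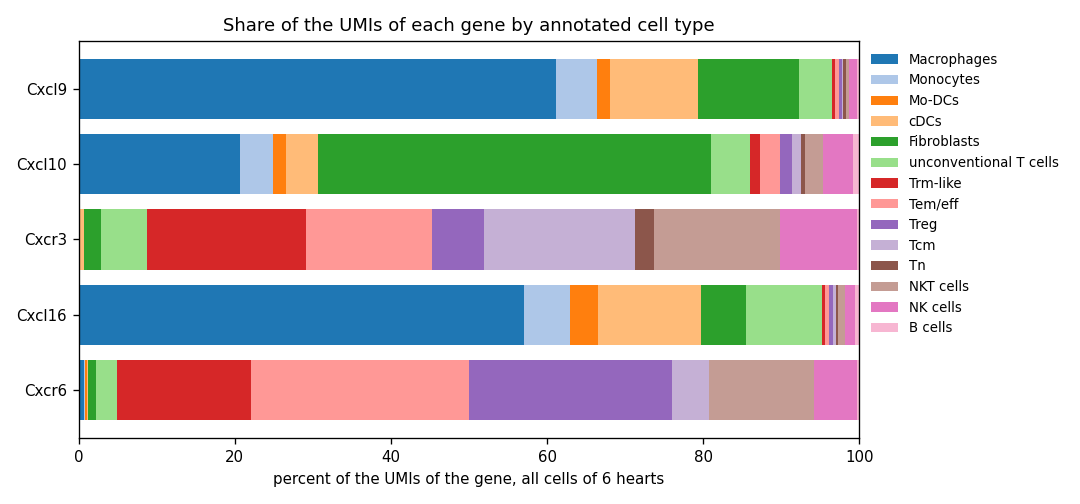
Share of the UMIs of each gene (horizontal axis, percent of all UMIs of that gene in 6 hearts) by annotated cell type (colours). Macrophages held most UMIs of Cxcl9 (61.1%) and Cxcl16 (57%), fibroblasts those of Cxcl10 (50.3%), while Cxcr3 and Cxcr6 lay in T cell, NKT cell and NK cell types.

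Cxcr3, the receptor of CXCL9 and CXCL10, was sparse, with 285 UMIs in all 4441 cells. Its level was highest in tissue-resident memory-like T cells (Trm-like), at 32.4, 73.7 and 54.6 CPM in hearts 1 to 3 and 75, 34.5 and 74 CPM in hearts 4 to 6. Central memory T cells (Tcm) had 45.8 ± 21.5 CPM (n = 6), regulatory T cells (Tregs) 25.9 ± 14.9 CPM, and effector memory and effector T cells (Tem/eff) 20.5 ± 12.1 CPM. None of these neighbours in the order differed beyond its spread over hearts. A Cxcr3 UMI was held by 13.3% of Trm-like cells, 16.9% of Tcm, 11% of Tem/eff and 1.33% of fibroblasts, or by 9.39%, 7.89%, 2.14% and 0% after thinning. No UMI was found in macrophages (0 of 429 cells, which allows a share of cells with a UMI of up to 0.699%, from 3 counts), monocytes (0 of 154, up to 1.95%) or Mo-DCs (0 of 204, up to 1.47%). At these depths a level of this size is far below 1 UMI a cell, so a cell that carried Cxcr3 would often show no UMI, and these limits do not bound the share of cells that express it.

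Cxcr6, the receptor of CXCL16, was read in more cells, with 1964 UMIs. Cells annotated Tregs had the highest level, at 492.5, 540.1 and 717 CPM in hearts 1 to 3 and 223, 954 and 632 CPM in hearts 4 to 6. Tregs were above Trm-like cells (282 ± 110 CPM, n = 6) in 5 of 6 hearts, and the difference (312 CPM, SD 285) was slightly larger than its spread. Without 14 Tregs that held at least 3 of 6 markers of type 2 innate lymphoid cells (ILC2), a setting chosen after seeing the data, the difference was 259 CPM (SD 272, again 5 of 6 hearts) and within its spread. Trm-like and Tem/eff cells (256 ± 65.5 CPM) did not differ beyond their spread, and Tem/eff cells were above NKT cells (111 ± 75.8 CPM) in 6 of 6 hearts. A Cxcr6 UMI was held by 44.1% of Tregs, 40.7% of Tem/eff cells, 37.8% of Trm-like cells, 21% of NKT cells and 3.73% of fibroblasts. After thinning the shares were 35.7%, 22.3%, 28.7%, 10.4% and 1.07%.

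Within the cells annotated Tregs, Cxcr6 and Foxp3, the transcription factor that defines the lineage, were seldom read together. Of 263 Tregs, 51 held a Foxp3 UMI (19.4%), as did 8.87% of Tem/eff cells and 0.412% of naive T cells, so most cells under the label showed none. At a mean of 128 CPM, a Treg that carried Foxp3 would often show no UMI of it. Cells with a Foxp3 UMI had 132, 0 and 249 CPM of Cxcr6 in hearts 1 to 3 and 122, 328 and 43 CPM in hearts 4 to 6. Cells without one had 644, 614 and 776 CPM in hearts 1 to 3 and 271, 1111 and 763 CPM in hearts 4 to 6. The cells with Foxp3 were few, at 8, 3 and 11 in hearts 1 to 3 and 18, 5 and 6 in hearts 4 to 6. They held 5, 0 and 13 Cxcr6 UMIs in hearts 1 to 3 and 5, 5 and 1 in hearts 4 to 6. Over hearts, the cells with Foxp3 had a mean of 146 CPM of Cxcr6 and those without had 696.5 CPM. The former value lies below the means of Trm-like (282 CPM) and Tem/eff cells (256 CPM). Cxcr6 was lower in the cells with Foxp3 in 6 of 6 hearts, at like median depths of 2734 and 2872 UMIs, and without the cells with ILC2 markers this again held in 6 of 6 hearts (150 against 637 CPM). The cells were also divided the other way, after thinning to 1500 UMIs. For Foxp3 this reads the same relation in the same cells and is not a further test. Tregs with a Cxcr6 UMI had 41.5 ± 64.9 CPM of Foxp3 (SD, n = 6 hearts) and those without had 175 ± 68.3 CPM. In the same comparison Ifng, which encodes interferon gamma, had 152 ± 137 CPM in Tregs with Cxcr6 and 64.1 ± 114 CPM in those without, and Nfkb1 had 1935 ± 880 and 1260.0 ± 186 CPM. Each of the 3 genes went one way in 6 of 6 hearts, with an exact paired permutation p of 0.0312 (two-sided, the smallest that 6 pairs can give) and 0.198 after adjustment over 19 genes, so none passed. In Tem/eff cells split in the same way, Jak2 had 406 ± 178 CPM with Cxcr6 and 693 ± 159 CPM without (lower in 6 of 6 hearts, exact permutation p = 0.0312, adjusted 0.625).

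**Figure D3:**
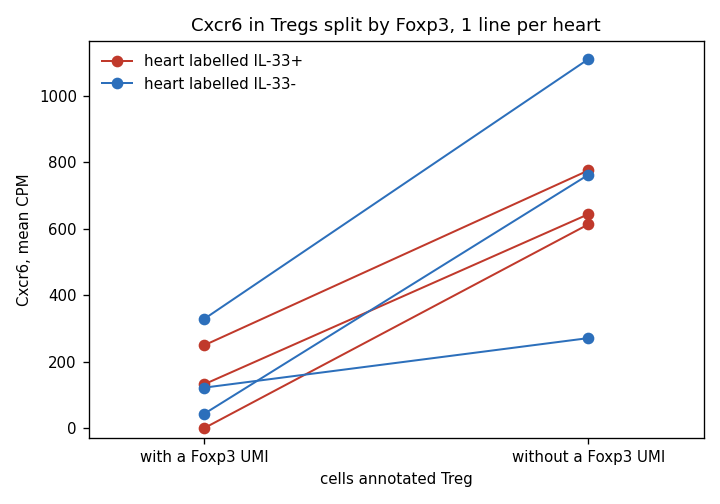
Cxcr6 in cells annotated Treg (vertical axis, mean CPM, linear), split by whether a cell held a Foxp3 UMI (horizontal axis). Each line is 1 heart, red for IL-33+ and blue for IL-33-. In all 6 hearts the cells with Foxp3 sat lower, between 0 and 328 CPM, than the cells without it, between 271 and 1111 CPM. The cells with Foxp3 numbered 3 to 18 in a heart.

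At equal depth, cells that held both Cxcr3 and Cxcr6 were about as many as would be counted for unrelated genes. Among Trm-like cells thinned to equal depth, 9 cells held both, where 9.77 would be counted if the receptors were unrelated. Among Tregs there were 4 such cells against 3.93, and among Tcm 3 against 2.13. Tem/eff cells gave 1 against 1.56, and NKT cells 0 against 1.245. With all UMIs, where depth differs between cells, 19 Tem/eff cells held both against 14.6, above the number in 6 of 6 hearts. The other types named lay nearer to the number for unrelated genes. Counts as small as those after thinning cannot show a weak relation.

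Across the 14 types the levels of the genes were also set beside those of all 10073 genes with at least 100 UMIs, by Pearson's r of log2(CPM + 10) over types (a description, since types share depth and library). Most like Cxcl9 were Nrp2 (r = 0.987), Hfe (0.974) and Sdc3 (0.973), and most like Cxcl16 were Rab7b (0.989), Naaa (0.987) and Tnfrsf11a (0.974). For Cxcl10 they were Phldb1 (0.971), Slc39a1 (0.962) and the metallothionein Mt1 (0.961). For Cxcr3 they were Cd96 (0.937), Slc37a3 (0.932) and Hdhd5 (0.927), and for Cxcr6 Vps54 (0.963), Pdcd1, the gene of the checkpoint receptor PD-1 (0.95), and D030056L22Rik (0.936). Cxcl9 and Cxcl16 had an r of 0.963 with each other, Cxcl9 and Cxcl10 0.854, and Cxcr3 and Cxcr6 0.842.

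The graft comparison asked how these genes differed between hearts labelled IL-33+ and IL-33-. In each type, log2(mean CPM + 10) per heart was compared with limma over all genes that had at least 10 UMIs and a UMI in at least 3 hearts, with Benjamini-Hochberg adjustment over that type's genes and 3 hearts a group. Fold changes are IL-33+ over IL-33-, on that log2 scale, which understates changes of low genes. The ± after a log2 fold change is limma's SE, which draws part of its variance from other genes. Cxcl10 and Cxcl16 could be tested in all 14 types, Cxcl9 in 13, Cxcr6 in 9 and Cxcr3 in 7. Of these 57 pairs of gene and type, 1 was called at an adjusted p of 0.05 or less, Cxcl9 in monocytes. Over all genes and types 10 of 113189 pairs (0.00883%) were called, and in monocytes 1 of 7125 genes (0.014%), which was Cxcl9 itself. The groups of hearts did not overlap in 13 of the 57 pairs, of which 9 were lower and 4 higher in IL-33+ hearts, while 9.81% of all pairs tested did not overlap. Since the genes were selected with such values in view, that count supports nothing by itself. Over the 57 pairs the median log2 fold change was -0.12, and over all genes it ran from -0.08 to 0.28 between types, the highest in B cells.

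**Figure D4:**
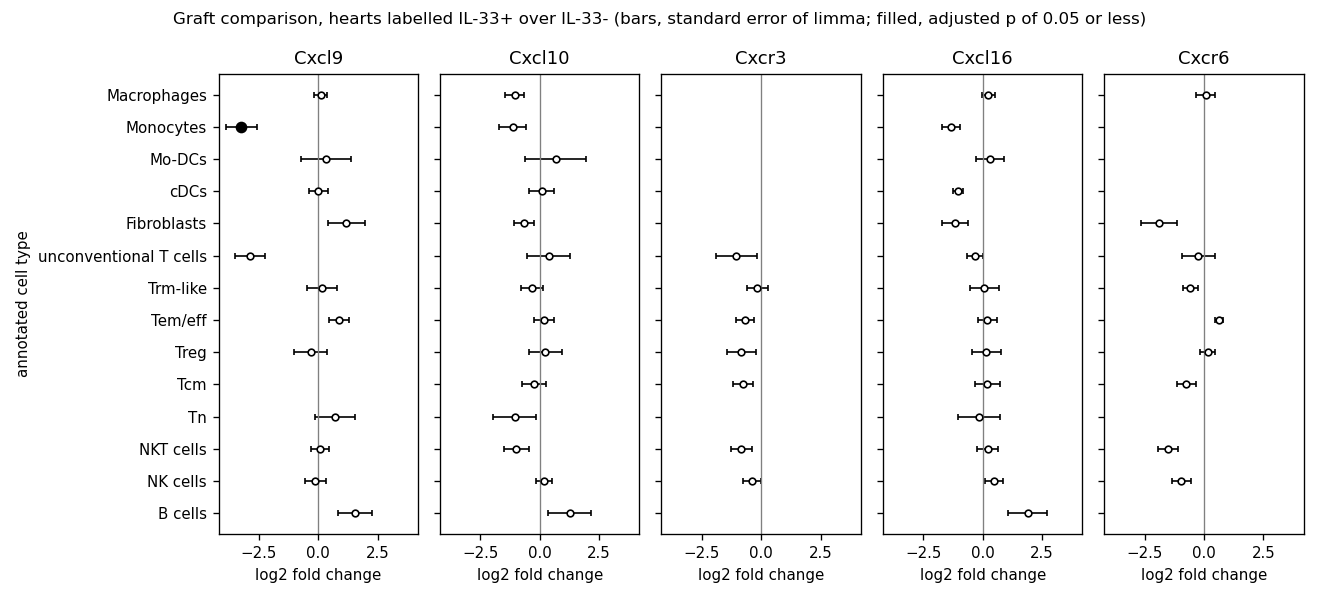
Log2 fold change (horizontal axes) of each gene in hearts labelled IL-33+ over IL-33-, in each annotated type where it could be tested (vertical axis), with bars of 1 standard error from limma. Filled points had an adjusted p of 0.05 or less, which held for Cxcl9 in monocytes. All 7 values of Cxcr3 were below 0, with none called.

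Cxcl9 was lower in monocytes of IL-33+ hearts. It stood at 178, 0 and 0 CPM in hearts 1 to 3 and at 240.2, 272 and 216 CPM in hearts 4 to 6. The groups did not overlap, but heart 1 lay close to the IL-33- hearts. The log2 fold change was -3.24 ± 0.65 (SE from limma, limma adjusted p = 0.0471), at 59.3 ± 103 against 242 ± 28.2 CPM (SD, n = 3 each). This SE draws part of its variance from the trend over other genes and does not measure the spread of these hearts. Without that trend the call was lost. The exact permutation p was 0.1, the smallest that 3 against 3 hearts allow. The hearts at 0 had 5 and 15 monocytes, in which 0 UMIs allow up to 104 and 33.4 CPM. The UMIs came from 10 cells in heart 1 (102 UMIs), 9 in heart 4 (58), 2 in heart 5 (17) and 1 cell in heart 6 (17). Monocyte markers, summed over 4 genes, were at 3793 to 4881 CPM in IL-33+ and 5019 to 5570 CPM in IL-33- monocytes, and macrophage markers, summed over 7, at 4753 to 5951 and 4871 to 6367 CPM. All markers of both lists were read. Besides monocyte markers, 2 of the other 10 lists did not overlap between the groups, fibroblast markers at 203 to 211 CPM in IL-33+ and 29.9 to 160 CPM in IL-33- hearts, and NK cell markers at 0 to 41.4 and 45.1 to 189 CPM, with Ncr1 at 0 in all monocytes. The part of these lists in the result was not tested. The call was lost without heart 2 (adjusted p = 0.999), heart 4 (0.703), heart 5 (0.512) or heart 6 (0.155), and was kept without heart 1 (0.0038) or heart 3 (0.000772). With only hearts that had at least 10 monocytes, the log2 fold change was -2.45 (adjusted p = 0.96).

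In macrophages, the main holders of Cxcl9, the groups overlapped (698 ± 32.9 against 708 ± 356 CPM, n = 3 each) and the log2 fold change was 0.1 ± 0.27 (limma adjusted p = 0.993). The graft effect on Cxcl9 was set in 1 model against that in macrophages, and was -3.34 ± 1.32 (log2, SE) in monocytes minus macrophages, with an adjusted p of 0.93. None of 7105 genes was called for this difference (0%), and 294 had an unadjusted p of 0.05 or less. So Cxcl9 was called in 1 type and not in the other, without a difference between the types that passed. In cDCs Cxcl9 had 396.5, 556 and 314.5 CPM in IL-33+ and 357, 961 and 196 CPM in IL-33- hearts, which overlapped (log2 fold change 0.01 ± 0.4). In unconventional T cells it had 129, 0 and 106 CPM in IL-33+ and 287, 283 and 715 CPM in IL-33- hearts, with no overlap (log2 fold change -2.87 ± 0.64, limma adjusted p = 0.154). The heart at 0 there had 2 cells. Without the cells that held markers of both T cells and macrophages this was -1.86 ± 0.68 (adjusted p = 0.987). Over the 13 types tested, the log2 fold change of Cxcl9 was below 0 in 4 and above 0 in 9. It ran from -3.24 in monocytes to 1.55 in B cells.

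Cxcl16 was at lower levels in 2 other myeloid types of IL-33+ hearts, without passing the test. Over the 14 types its log2 fold change was below 0 in 5 and above 0 in 9. It ran from -1.35 in monocytes to 1.9 in B cells, with none called. In cDCs it was 299, 274 and 311 CPM in hearts 1 to 3 and 507, 655 and 697 CPM in hearts 4 to 6, so the groups did not overlap and lay apart by more than their spread (295 ± 18.7 against 619.7 ± 99.9 CPM). The log2 fold change was -1.04 ± 0.23 (limma adjusted p = 0.221, exact permutation p = 0.1). A Cxcl16 UMI was read in 41 of 88 cDCs of IL-33+ hearts and 62 of 83 of IL-33- hearts. In monocytes, named after the values were seen, Cxcl16 was 147, 80.6 and 105 CPM against 413, 322.5 and 182 CPM, again without overlap (log2 fold change -1.35 ± 0.38, adjusted p = 0.378). In macrophages the values overlapped (866 ± 419 against 700.4 ± 174 CPM, log2 fold change 0.23 ± 0.27). The difference of the graft effect in monocytes and macrophages was -1.58 ± 0.89 for Cxcl16 (adjusted p = 0.93). In unconventional T cells the log2 fold change was -0.33 ± 0.33. In the cDCs, macrophage markers summed to 184 to 530.2 CPM in IL-33+ and 158 to 320.0 CPM in IL-33- hearts, and dendritic markers to 543 to 1021 and 578 to 1091 CPM, and both lists overlapped between the groups. Of 11 marker lists, 1 did not overlap, the T cell list, at 32.2 to 81.7 CPM in IL-33+ and 11.5 to 29.1 CPM in IL-33- cDCs, and its part in the result was not tested.

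Cxcl10 in macrophages lay lower in IL-33+ hearts at 194, 42.3 and 241 CPM than in IL-33- hearts at 283, 299 and 257 CPM, without overlap, and did not pass (log2 fold change -1.06 ± 0.4, limma adjusted p = 0.987). Heart 2, with the lowest value, had 10 macrophages, and without it the log2 fold change was -0.35. Of 11 marker lists, 4 also separated the macrophages of the groups without overlap. Macrophage markers summed to 4399 to 5695 CPM in IL-33+ and 5774 to 7232 CPM in IL-33- hearts, fibroblast markers to 235 to 329 and 343 to 560.3 CPM, endothelial markers to 76 to 118 and 40.4 to 53.9 CPM, and T cell markers to 28.8 to 56.9 and 19.2 to 27.2 CPM. Their part in the result was not tested. In fibroblasts the groups overlapped (log2 fold change -0.66 ± 0.41, adjusted p = 0.998), and with only hearts of at least 10 fibroblasts it was -1.66 (adjusted p = 0.00467, hearts 1 and 3 against 4 and 6), a call that the other alternatives did not make. In unconventional T cells it was 0.37 ± 0.91. The graft effect on Cxcl10 in monocytes minus macrophages was -0.08 ± 1. In the other types Cxcl10 had log2 fold changes between -1.13 and 1.26, none called.

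**Figure D5:**
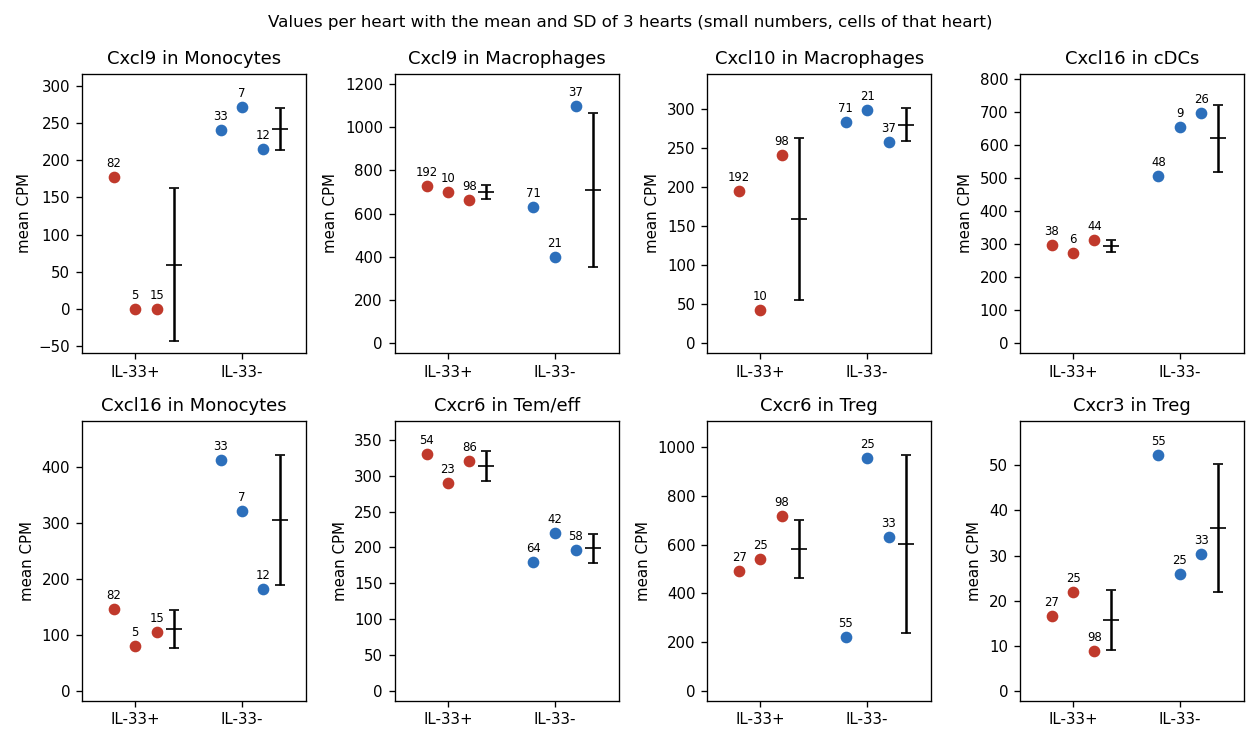
Mean CPM per heart (vertical axes, linear) for 8 pairs of gene and type, with the number of cells of each heart printed over its point and the mean and SD of 3 hearts beside each group. Cxcl16 in cDCs and Cxcr6 in Tem/eff cells had no overlap between the groups, and Cxcl9 in macrophages and Cxcr6 in Tregs had.

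Among the receptors, Cxcr6 was at a higher level in Tem/eff cells of IL-33+ hearts, without passing the test. The level was 330.2, 290.4 and 320.4 CPM in hearts 1 to 3 and 179.9, 221 and 196 CPM in hearts 4 to 6, without overlap and with each group within a narrow range. The log2 fold change was 0.63 ± 0.18 (314 ± 20.7 against 199 ± 20.5 CPM, limma adjusted p = 0.999, unadjusted 0.00147, exact permutation p = 0.1). Of the 9395 genes tested in Tem/eff cells, 414 had an unadjusted limma p of 0.05 or less. The groups did not overlap for 867 of them. NK cell markers, summed over 4 genes, were at 209 to 549 CPM in Tem/eff cells of IL-33+ and 96.1 to 291 CPM of IL-33- hearts, and Ncr1 was at 0 in both. Treg markers there were at 1034 to 1575 and 1326 to 1426 CPM, and the part of either list in the result was not tested. Shares of Tem/eff cells with a Cxcr6 UMI were close in the groups, at 71 of 163 and 62 of 164 cells. In Tregs the groups overlapped (583 ± 118 against 603 ± 367 CPM, log2 fold change 0.16 ± 0.31, adjusted p = 0.976). The graft effect in Tem/eff minus Treg was 0.47 ± 0.57 for Cxcr6 and 0.16 ± 0.51 for Cxcr3 (adjusted p of 0.97 and 0.995), and none of 7219 genes was called for this difference (0%), with 364 at an unadjusted p of 0.05 or less. In Trm-like cells Cxcr6 had a log2 fold change of -0.57 ± 0.31. In NKT cells, named after the values were seen, it was 28, 15.2 and 163 CPM in IL-33+ and 106.5, 203 and 149 CPM in IL-33- hearts, which overlapped through heart 3 (log2 fold change -1.52 ± 0.44, adjusted p = 0.851). Without heart 3 it was called (-2.35, adjusted p = 0.00248).

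Cxcr3 was below 0 in each of the 7 types where it could be tested, between -1.05 in unconventional T cells and -0.16 in Trm-like cells, and was called in none. In Tregs it stood at 16.5, 22 and 8.73 CPM in hearts 1 to 3 and 52.2, 25.8 and 30.3 CPM in hearts 4 to 6, without overlap (log2 fold change -0.83 ± 0.6, limma adjusted p = 0.946). These values rested on 1 to 8 UMIs a heart, with 6 of 150 and 13 of 113 cells holding one. NK cell markers in the same Tregs did not overlap either (136 to 581 CPM in IL-33+ and 67.6 to 120 CPM in IL-33- hearts), and their part was not tested. In Tcm the log2 fold change was -0.76 ± 0.43 and the groups overlapped (34 ± 23.3 against 57.6 ± 13.9 CPM). The 7 types share the same 6 hearts and are not separate tests of the graft.

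The other genes of the pathway were taken from a list of 28, which held the interferon gamma cascade, the sheddases, other receptors and ligands, the T helper factors and the G protein machinery below the receptors. Cxcl11, the other CXCR3 ligand, is not analysed here. Over the 14 types, 0 of 339 pairs of pathway gene and type were called by limma. Its unadjusted p was 0.05 or less in 20 pairs higher and 10 lower in IL-33+ hearts. These pairs share the same hearts and repeat genes across types, so they are not separate tests. Whether their number or split differs from that of all genes was not tested. In macrophages 391 of 9683 genes had such a p, and of 26 pathway genes 2 higher and 1 lower. In Tem/eff cells 414 of 9395 genes had one, and of 26 pathway genes 1 higher and 0 lower. In macrophages the list's median log2 fold change was -0.02 (all genes -0.05), and the largest were Pf4 (-1.29 ± 0.47), Ifng (1.01 ± 0.39) and Arrb1, a beta-arrestin (0.89 ± 0.51), each with an adjusted p of 0.987. T cell markers in the same macrophages were likewise higher in IL-33+ hearts (28.8 to 56.9 against 19.2 to 27.2 CPM), and their part in the Ifng value was not tested. In Tem/eff cells the median was -0.08 (all genes -0.02), and the largest were Ifng (0.76 ± 0.31), Adam17 (-0.51 ± 0.3) and Pf4 (-0.49 ± 0.37), each with an adjusted p of 0.999.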

How the data were processed

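Cells isolated from 6 grafts were hashed, pooled and sequenced with a 3′ single-cell kit. The authors aligned reads with Cell Ranger to mm10, filtered cells on counts, genes and mitochondrial share in Partek (version 10.0.23.0425), and deposited log2(CPM + 1) values per gene and cell together with their cell types, graft labels and hashtags. The authors' filter left cells of 1500 UMIs or more, so shallower cells are not represented. Values were returned to CPM here, and whole UMIs were read from the spacing of each cell's values (99.9% of low values within 0.05 of a whole UMI).

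The members and all gene lists, tests and motifs were chosen with earlier results of these data known. On log2(mean CPM + 10) per heart and type, linear models were fitted with limma (version 3.58.1, R 4.3.3, eBayes with a trend), with the heart as the replicate, the filter of 10 UMIs and 3 hearts, and a call at an adjusted p of 0.05 or less. Differences of the graft effect between types were fitted on the differences within hearts. Single values used two-sided exact permutation tests over hearts. Thinning drew 1500 UMIs from each cell without replacement. Intervals and the limit of 3 UMIs for a count of 0 cover counting error only.

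The genes named are the 5 members, each in its 3 highest types and wherever called, the pathway genes that were called or had the 3 largest changes in macrophages and Tem/eff cells, and the 3 genes most like each member. Cxcl16 in monocytes and Cxcr6 in NKT cells were added after their values were seen, as were the splits by Cxcl9, by Foxp3 and by Cxcr6, the genes given from them, and the values without cells with ILC2 markers. A pathway gene that entered the counts is not reported here by name. The fit was also run on simulated counts, with the same spread set for all genes. That run cannot show how the fit does where hearts differ more, as for Cxcl9 in monocytes. Alternatives were another pseudocount (1 or 50 CPM), no filter, summed UMIs, limma-voom, quantile normalization, hearts with at least 10 cells, cells without mixed markers, no trend, and leaving out each heart.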

Additional observations from a re-analysis of the deposited data

How the results depend on the processing

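Of the 5 genes over all types, 1 pair was called as reported, 2 with a pseudocount of 50 CPM (Cxcl9 in monocytes and in unconventional T cells), 2 with no filter (Cxcl16 in cDCs, adjusted p = 0.0448, and Cxcl9 in unconventional T cells), 0 with a pseudocount of 1 CPM, with quantile normalization or with no trend, and 0 to 3 when each heart was left out. Summed UMIs and cells without mixed markers called Cxcl9 in monocytes, limma-voom called Cxcr6 in NK cells instead, and hearts with at least 10 cells called Cxcl10 in fibroblasts instead. Cxcl9 in monocytes kept its direction in every alternative run, but lost its call (log2 fold change, limma) with a pseudocount of 1 CPM (-5.43), no filter or no trend (-3.24 each), limma-voom (-2.07), quantile normalization (-2.86) and hearts with at least 10 cells (-2.45). With each heart left out it ran from -4.65 to -2.54. Its size follows the pseudocount because 2 hearts were at 0.

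Values near 0 changed sign without being called. Cxcl9 in cDCs was -0.013 with 50 CPM, -0.062 with summed UMIs and -0.505 to 0.61 with each heart left out. Cxcl10 in unconventional T cells was -0.39 with 1 CPM, -0.045 with hearts of at least 10 cells (1 IL-33- heart, assumed to vary like the others) and -0.65 to 1.79 with each heart left out. Cxcl16 was -0.0645 in macrophages with limma-voom and 0.13 in unconventional T cells with hearts of at least 10 cells. With each heart left out, Cxcl9 in macrophages ran from -0.25 to 0.47, Cxcl16 in macrophages from -0.13 to 0.44, Cxcr3 in Trm-like cells from -0.46 to 0.11 and Cxcr6 in Tregs from -0.43 to 0.6. The difference of the graft effect was 0.057 with 50 CPM and -0.71 to 0.82 with each heart left out for Cxcl10, and -0.303 to 0.59 for Cxcr3. The cause of these changes was not tested. The levels in the highest type moved by less than 1 SD over hearts with summed UMIs, for all 5 genes. No paired analysis was possible because the hearts of the groups share no numbers. Few monocytes per heart and few Cxcr3 UMIs limited what could be seen.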

Other observations

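Among the cells annotated Tregs, 14 held at least 3 of 6 ILC2 markers. These had a mean of 1527 CPM of Cxcr6, with a UMI in 10 of 14 cells, against 533 CPM in the other 249 cells. They came from hearts 2, 3, 5 and 6, with 2, 7, 1 and 4 cells. Without them the level of Cxcr6 in Tregs was 492.5, 526.5 and 671 CPM in hearts 1 to 3 and 223, 923 and 406 CPM in hearts 4 to 6, which still overlapped, and the distance of Tregs from Trm-like cells was then within its spread. They held no UMI of Cxcr3 (0 of 14 cells).

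Unconventional T cells held UMIs of ligands and receptors, and the cells that held both were about as many as would be counted for unrelated genes. After thinning, 4 of 83 cells held both Cxcl16 and Cxcr6, where 3.2 would be counted (16 against 19 with all UMIs). The 52 cells with markers of T cells and macrophages had 511 CPM of Cxcl16 and 87.5 CPM of Cxcr6, and the 31 others 372 and 39.8 CPM. The median depth of the type was 10175 UMIs, the highest of the 14 types.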
